A study of Homo sapiens with 12 samples.

Results

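The values of 6 genes of the activator protein-1 (AP-1) family, *JUN*, *JUNB*, *JUND*, *FOS*, *FOSB* and *ATF3*, were taken by gene symbol from the 10976 genes listed for each of 12 RNA-seq libraries of human cerebral organoids (COs). COs are neural tissue grown as free-floating aggregates of stem cells. The WT group was grown from unedited H1, an embryonic stem cell line of human origin. The KO group was made from KO#2 and KO#10, each a single clone of H1 edited at *c-JUN* (*JUN*) with CRISPR-Cas9. COs of all 3 lines were collected on day 12 and day 24 in an unguided protocol, with 2 libraries per line and day and the RNA of 3 to 4 pooled COs in each library. This gave 2 WT and 4 KO libraries per day. In bulk RNA of this kind, fewer cells of a type and less RNA per cell cannot be told apart.

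AP-1 is a dimer of basic leucine zipper (bZIP) proteins. JUN proteins can pair with each other or with a partner, whereas FOS proteins need a JUN protein to bind DNA. The JUN and FOS pairs prefer the element TGACTCA, and pairs with members of the ATF family prefer the longer cAMP response element (CRE) TGACGTCA. c-JUN is known to act on its own promoter, *FOS* and *FOSB* are classical immediate early genes whose transcripts appear and vanish quickly after a stimulus, and *ATF3* is a stress-induced gene whose product can repress or activate its targets. In the developing nervous system AP-1 is known for its part in cell survival, migration and the response of neurons to activity and injury.

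The promoters of the members are shown first, because *JUN* and *ATF3* shared an element there and *FOS* and *FOSB* shared a pair of elements. The sequences came from the RefSeq promoter windows (GRCh38.p14, 250 bases before to 50 bases after the start site), in which all 6 genes matched by symbol and 7 windows were found, since *ATF3* had 2 start sites. The stretches below end at the base before the start site and read 5′ to 3′ on the strand of the gene. They are chr1:58784048-58784147 on the minus strand for *JUN* (100 bases), chr1:212565257-212565406 on the plus strand for the first start of *ATF3* (150 bases), chr14:75278728-75278827 on the plus strand for *FOS* (100 bases) and chr19:45467896-45467995 on the plus strand for *FOSB* (100 bases). Capitals mark TGACATCA in *JUN* and *ATF3*, and TGACGT and TATAAA in *FOS* and *FOSB*.
*JUN*: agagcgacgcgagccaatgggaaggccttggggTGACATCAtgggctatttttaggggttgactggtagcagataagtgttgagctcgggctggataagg
*ATF3*: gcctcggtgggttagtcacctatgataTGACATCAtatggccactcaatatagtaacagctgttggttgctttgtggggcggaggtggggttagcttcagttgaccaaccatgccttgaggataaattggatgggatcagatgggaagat
*FOS*: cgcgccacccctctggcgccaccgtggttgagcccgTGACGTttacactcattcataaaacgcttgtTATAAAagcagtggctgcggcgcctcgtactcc
*FOSB*: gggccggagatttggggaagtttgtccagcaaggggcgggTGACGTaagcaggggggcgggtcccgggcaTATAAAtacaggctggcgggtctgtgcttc

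Both strands of the windows were searched for TGACTCA, TGACGTCA, its variant TGACATCA, the CRE core TGACGT (which every TGACGTCA also holds), TATAAA and the CArG box bound by serum response factor. TGACATCA lay at −67 to −60 in *JUN* and at −123 to −116 in the first *ATF3* window, and it was in 2.61% of all 35116 windows of this length. TGACGT lay at −64 to −59 in *FOS* and at −60 to −55 in *FOSB*, each followed by TATAAA at −33 to −28 and −30 to −25. The shares of all windows were 7.98% for TGACGT and 11.5% for TATAAA. *JUND* held TGACGTCA at −200 to −193, found in 1.85% of windows, and a second TGACGT at −87 to −82 on the other strand. *JUNB* held TATAAA at −31 to −26, and the second *ATF3* window held it at −230 to −225. TGACTCA (4.95% of windows) and the CArG box (1.29%) were in none of the 7 windows, which says only that these letters are not in these bases.

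**Figure D1:**
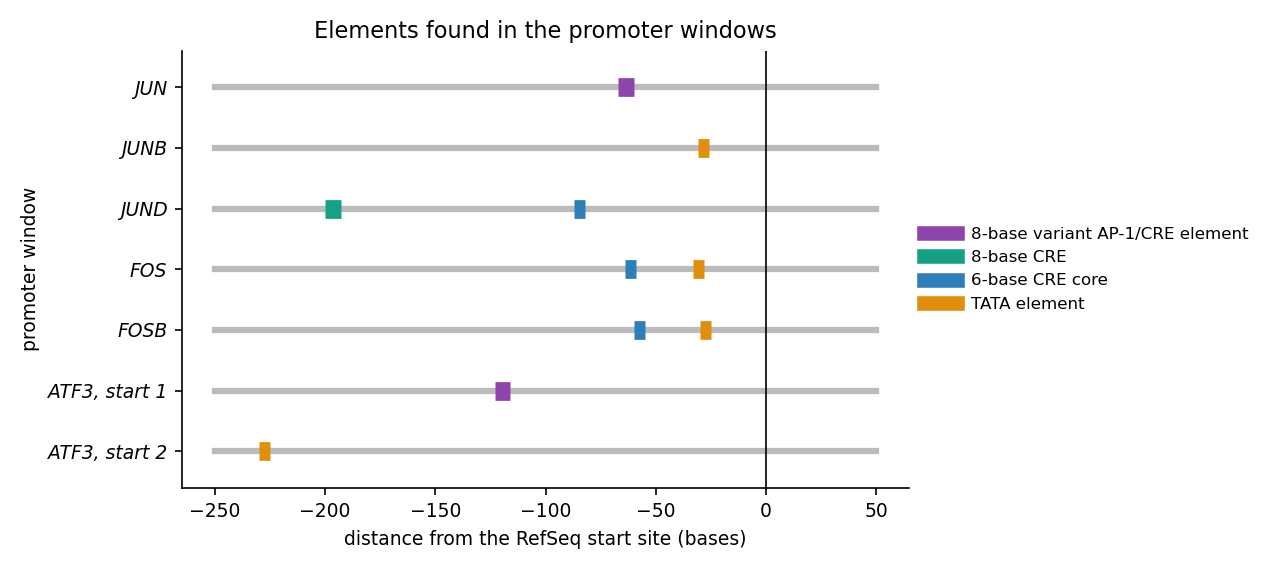
Elements found in the RefSeq promoter windows of the 6 genes, by distance from the start site in bases (grey bars, 250 bases before to 50 after). *JUN* and the first *ATF3* window share the 8-base variant element, and *FOS* and *FOSB* share a CRE core near −60 with a TATA element near −30.

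The intervals given in the files, compatible with GRCh38, were chr1:58776845-58784048 for *JUN* (ENSG00000177606), chr19:12791486-12793315 for *JUNB* (ENSG00000171223), chr19:18279694-18281622 for *JUND* (ENSG00000130522), chr14:75278826-75282230 for *FOS* (ENSG00000170345), chr19:45467995-45475179 for *FOSB* (ENSG00000125740) and chr1:212565334-212620777 for *ATF3* (ENSG00000162772). *JUN* has 1 exon in GENCODE 29, and its interval in the files spanned 7204 bases against 3540 in that annotation. *ATF3* spans 55444 bases with 11 annotated transcripts and 7 start sites, so that its value pools several promoters. *JUNB* lies within the interval of *HOOK2* and *FOSB* within that of *ERCC1*, both on the opposite strand. Whether the counting used strand is not stated, so reads of these overlapping pairs may not have been told apart.

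Each value was a whole-number normalized score. The median score was 17 and the highest 5585 in every library, so the sequencing depth is unknown and counting error cannot be given. Since the scores may not be scaled to gene length, levels were compared between libraries and not between genes. The labels call the tissue embryonic stem cells, whereas all 6 neural progenitor markers (*PAX6*, *SOX2*, *NES*, *HES5*, *FABP7* and *SOX1*) were detected in every library. All 6 pluripotency markers were detected in every WT library too. On day 12 the pluripotency markers summed to 714 and 918 in WT and to 418 to 481 in KO. The progenitor markers summed to 395 and 428 in WT and to 482 to 747 in KO on that day. Sums of different genes are not set against each other here. One library stood apart on day 24. The summed score of 5 mesenchyme markers was 2286 in KO#10 replicate 1 but 124 to 147 in the other KO libraries, with 1870 and 2141 in WT. KO effects called on day 24, and those of the members, are therefore also given without it. Where the labels do not say that replicates came from separate cultures, p-values measure only the spread between these libraries.

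The transcript of *JUN*, at which both clones were edited, was higher rather than lower in libraries labelled KO. On day 12 its score was 4 and 8 for WT, 19 and 18 for KO#2, and 14 and 13 for KO#10. On day 24 it was 13 and 15 for WT, 39 and 39 for KO#2, and 29 and 32 for KO#10. All libraries labelled KO lay above both WT libraries of their day, as in 8.23% of genes tested on day 12 and 22.2% on day 24. The level of this transcript therefore did not check the KO label. The files hold no protein values, and genotypes are named here as the labels give them. The KO effect of 1.33 on day 12 (log2 scale, standard error 0.27, adjusted p = 0.131) was not called, and it lay between 0.90 and 1.75 when 1 library was left out. On day 24 the log2 fold change was 1.25 (adjusted p = 0.0184, standard error 0.17), a 2.37-fold higher score, and it was called. Calls needed an adjusted p below 0.05 and a 2-fold change or more, and 8.01% of the 9289 genes tested were called on that day. Without KO#10 replicate 1 the log2 fold change was 1.33 (adjusted p = 0.00503). The call was lost when either WT library or the second replicate of either clone was left out, although the log2 fold change stayed between 1.15 and 1.34. Sums of cell type markers differed between the genotypes on that day. The 6 neuron markers (*MAP2*, *DCX*, *TUBB3*, *STMN2*, *NEUROD1* and *ELAVL4*) summed to 138 to 277 in WT and 318 to 1822 in KO, with none of them at 0, and the sums that were lower in KO are given with *ATF3*. The part of these cells in the *JUN* values was not tested.

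*JUN* also rose with time in both genotypes. From day 12 to day 24 its log2 change was 1.16 in WT (standard error 0.27, adjusted p = 0.00887) and 1.08 in KO (standard error 0.19, adjusted p = 0.00126), and the background of calls was 15.1% in WT and 11.5% in KO. The WT call was lost without day 12 replicate 1 (0.73, adjusted p = 0.0901) or day 24 replicate 2 (1.06, adjusted p = 0.0636), and without KO#10 replicate 2 of day 12 the KO change was 0.99, just under 2-fold. The change of the KO effect between the days was −0.08 (standard error 0.33, adjusted p = 0.919), with an error wide enough to leave its sign undetermined. In the order of mean scores, WT on day 12 (6.0) was lowest, followed by KO#10 on day 12 (13.5), WT on day 24 (14.0), KO#2 on day 12 (18.5), KO#10 on day 24 (30.5) and KO#2 on day 24 (39.0). The neighbours KO#10 on day 12 and WT on day 24 overlapped at 13 to 14, and the other neighbours did not overlap. Set against the same WT libraries on day 24, KO#2 was higher by a log2 of 1.42 (standard error 0.15, adjusted p = 0.0253). KO#10 gave 1.07 (standard error 0.15, adjusted p = 0.0736) and did not pass the threshold. The clones themselves differed by a log2 of 0.35 (standard error 0.15, adjusted p = 0.825). The genotype labels were also permuted within days in an exact test (225 assignments, two-sided). In this permutation test the mean KO effect of *JUN* over both days gave p = 0.00444, the smallest these assignments can give. With no overlap of KO and WT on either day, this smallest value follows. Single libraries were permuted, whereas genotype belongs to the 3 lines, so this p measures only the spread between these libraries.

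**Figure D2:**
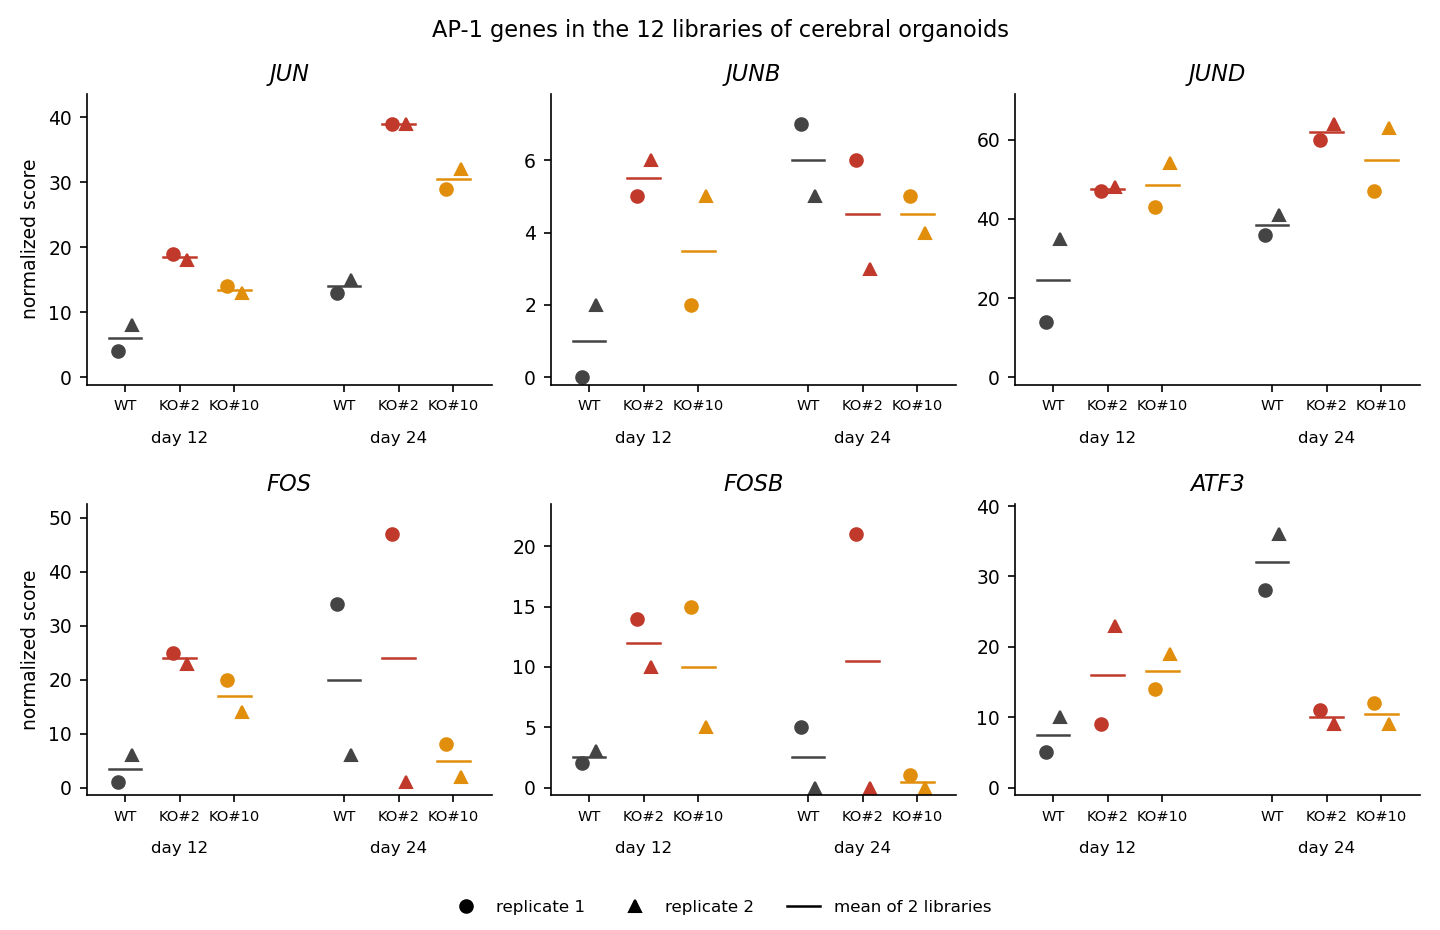
Normalized score (y axis, linear, 1 panel per gene) of the 6 AP-1 genes in WT, KO#2 and KO#10 on day 12 and day 24. Circles are replicate 1, triangles replicate 2 and bars the mean of both. *JUN* lies higher in KO on both days, *ATF3* is at 28 and 36 in WT on day 24 against 9 to 12 in KO, and *FOS* and *FOSB* split by replicate on day 24.

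*JUND*, the JUN family member that is usually expressed without a stimulus, had a similar order. On day 12 its score was 14 and 35 for WT, 47 and 48 for KO#2, and 43 and 54 for KO#10. On day 24 it was 36 and 41 for WT, 60 and 64 for KO#2, and 47 and 63 for KO#10. Again no KO library overlapped WT on its day. KO was the higher group, an arrangement held by 8.23% of genes tested on day 12 and 22.2% on day 24. The KO effect (log2 fold change) was 1.07 on day 12 (standard error 0.30, adjusted p = 0.237) and 0.58 on day 24 (standard error 0.16, adjusted p = 0.0543), so *JUND* was not called on either day. Without KO#10 replicate 1 the day 24 effect was 0.68 (adjusted p = 0.0123), still under 2-fold. The permutation test within days gave p = 0.00444 for its mean effect over both days, the smallest possible value, as for *JUN* and with the same limits. These were 2 of 12 tests, of the mean effect and of its change between the days in each of the 6 genes. For *JUND* too, the smallest value follows from the lack of overlap on both days and is not a separate result. The share of all genes that reach it is not given here. Between WT on day 12 and day 24 the difference was 0.76 (adjusted p = 0.0798), and in KO it was 0.27 (adjusted p = 0.336). The WT value rested on the day 12 libraries, being 0.13 (adjusted p = 0.718) without replicate 1 and 1.39 (adjusted p = 0.00325, a call) without replicate 2.

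*JUNB*, a JUN protein often described as a weaker activator than c-JUN, stayed at low scores throughout. On day 12 its score was 0 and 2 for WT, 5 and 6 for KO#2, and 2 and 5 for KO#10. On day 24 it was 7 and 5 for WT, 6 and 3 for KO#2, and 5 and 4 for KO#10. WT and KO met or overlapped on both days. No library reached the score of 10 required for testing, so its values come from a fit without the filter on low values, and they are differences between numbers of a few units. In that fit the KO effect was 1.60 on day 12 (adjusted p = 0.366) and −0.36 on day 24 (adjusted p = 0.383, and −0.42 with adjusted p = 0.327 without KO#10 replicate 1), and the difference of WT between the days was 2.00 (standard error 0.51, adjusted p = 0.0153). The corresponding difference in KO was 0.04 (adjusted p = 0.944).

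On day 12 *FOS* and *FOSB* had low scores in WT. The *FOS* score was 1 and 6 for WT, 25 and 23 for KO#2, and 20 and 14 for KO#10. The *FOSB* score was 2 and 3 for WT, 14 and 10 for KO#2, and 15 and 5 for KO#10. Neither gene had a KO library that reached down to WT, an arrangement held by 8.23% of genes tested. The KO effect was 2.49 for *FOS* (standard error 0.46, adjusted p = 0.108) and 1.70 for *FOSB* (standard error 0.43, adjusted p = 0.200), and neither was called. Of the 6 genes, 5 could be tested on day 12 and none was called by limma, while all 5 had an unadjusted p under 0.05, as did 980 of the 8885 genes tested. The background was low as well, since 0.09% of genes were called. On day 12 *JUN*, *FOS* and *FOSB* reached the score of 10 needed for testing only in KO libraries, the group where they were higher. That all 5 had an unadjusted p under 0.05 was thus partly set by the filter. The replicate numbers paired the libraries of that day, and with the replicate number as a block the adjusted p of the 5 tested genes lay between 0.0527 and 0.0771, still without a call. By the block, the number of genes called on day 12 went from 8 to 71.

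On day 24 *FOS* and *FOSB* split by replicate number within every line. The *FOS* score was 34 and 6 for WT, 47 and 1 for KO#2, and 8 and 2 for KO#10. The *FOSB* score was 5 and 0 for WT, 21 and 0 for KO#2, and 1 and 0 for KO#10. In each line the first replicate was the higher one, for both genes, and *FOSB* was listed at 0 in all 3 second replicates. A first replicate above the second in all 3 lines was also seen in 14.4% of genes tested. Within lines, the log2 difference of replicate 1 against replicate 2 was 2.83 for *FOS* (standard error 0.62, unadjusted p = 0.00733 and adjusted p = 0.463 by limma) and, without the filter, 2.68 for *FOSB* (standard error 0.73, adjusted p = 0.497). No gene was called in this comparison (0% of 9289), with 991 at an unadjusted p under 0.05. On day 24 *FOS* reached the score of 10 needed for testing only in replicate 1 (34 for WT and 47 for KO#2). That *FOS* was tested, and its unadjusted p, thus depended on the replicate where it was higher. The KO effect on day 24 was −1.13 for *FOS* (standard error 1.29, adjusted p = 0.539), and for *FOSB*, below the filter, it was 0.07 (standard error 1.39, adjusted p = 0.975). Both effects were without a call when KO#10 replicate 1 was left out, at −1.25 (adjusted p = 0.544) and 0.19 (adjusted p = 0.938).

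The labels do not say what the replicate number stands for, and these values stood beside the split on day 24. The summed score of the 3 endoderm markers in the files was 72 and 36 in KO#2 and 1074 and 33 in KO#10, replicate 1 first, with 6176 and 6205 in WT. In both WT libraries *AFP* stood at 5585, the highest score of every library, so a difference in *AFP* between them could not show. *APOA1* was at 0 in KO#2 replicate 2 and *AFP* in KO#10 replicate 2. *EGR1*, the immediate early zinc finger gene, had scores of 10 and 2 for WT, 14 and 1 for KO#2, and 3 and 2 for KO#10. Its difference of replicate 1 against replicate 2 was 1.73 (standard error 0.63, adjusted p = 0.466 by limma), without a call. Of 8 immediate early genes outside AP-1 tested in this way on day 24, *EGR1* included, 5 were positive and 3 negative. None of them was called. On day 12 the order of *EGR1* was the opposite, with 1 and 4 for WT, 6 and 25 for KO#2, and 3 and 12 for KO#10. That difference was called (log2 difference −1.64, adjusted p = 0.0389, where 0.653% of genes were called), though not without the filter on low values (adjusted p = 0.103). On each day *EGR1* reached the score of 10 needed for testing only in the replicate where it was higher. Its call on day 12 thus depends on that replicate passing the filter. *FOS* had no split by replicate number on day 12, with a difference of −0.40 between the replicate numbers (adjusted p = 0.573). Whether handling, culture or the makeup of the pooled COs differed between the replicates was not tested.

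**Figure D3:**
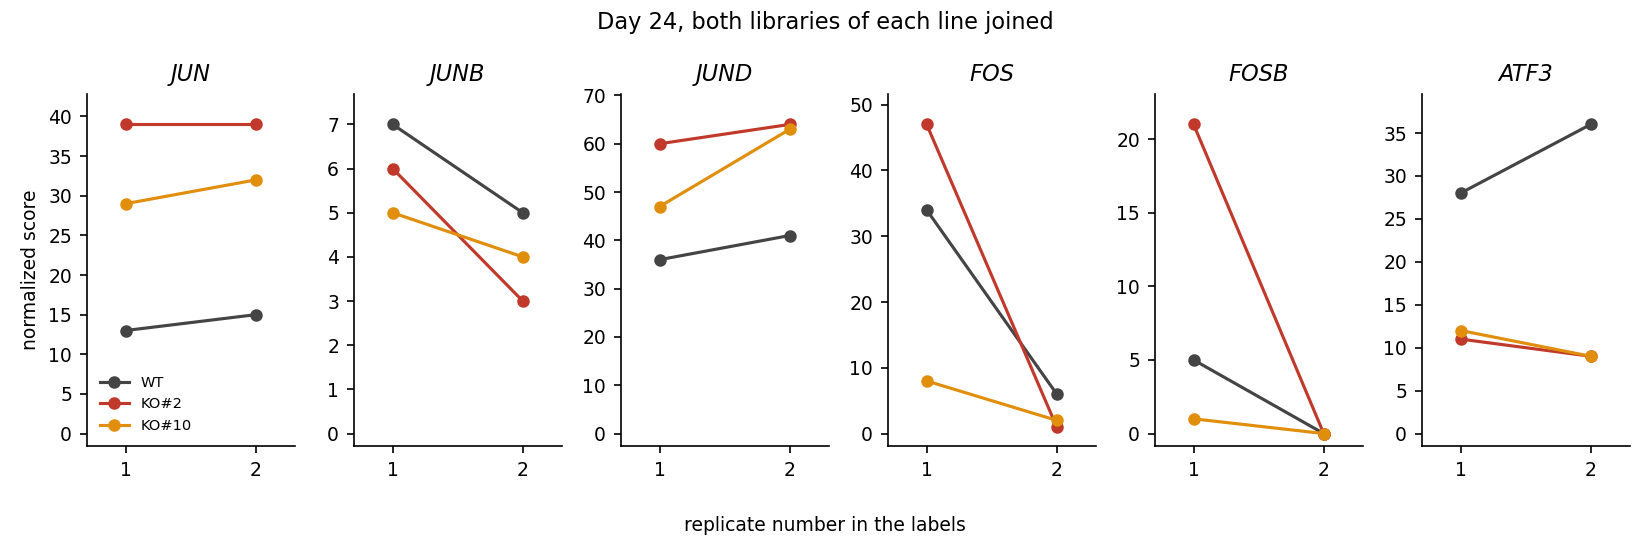
Normalized score (y axis, linear) of the 6 genes on day 24 by the replicate number in the labels (x axis), with both libraries of a line joined. *FOS* and *FOSB* drop from replicate 1 to replicate 2 in all 3 lines, whereas in *JUN* and *ATF3* the WT and KO lines stay apart in both.

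The KO effect on *ATF3* differed between the days. On day 12 its score was 5 and 10 for WT, 9 and 23 for KO#2, and 14 and 19 for KO#10, and the groups overlapped at 9 to 10. On day 24 it was 28 and 36 for WT, 11 and 9 for KO#2, and 12 and 9 for KO#10, with every KO library below both WT libraries, as in 21.8% of genes tested. The lower level in KO on day 24 was called at −1.55 on the log2 scale (standard error 0.18, adjusted p = 0.0172), a 2.93-fold lower score. On day 12 the KO effect was 1.01 (standard error 0.37, adjusted p = 0.370) and was not called. The change of the KO effect between the days was −2.56 (standard error 0.45, adjusted p = 0.0257), and it was called where 1.31% of 9952 genes were. In this fit, without a replicate block, *ATF3* was the only one of the 5 genes tested for this change to be called. With the block *FOS* was called as well (−3.63, adjusted p = 0.0491 by limma). For the *ATF3* change the exact permutation test within days gave p = 0.00889, again with single libraries permuted and not lines.

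In WT *ATF3* rose from day 12 to day 24 by a log2 of 2.01 (standard error 0.37, adjusted p = 0.00296), a 4.03-fold higher score. The corresponding difference in KO was −0.55 (standard error 0.26, adjusted p = 0.114), without a call. On day 24 the effect of each clone was −1.58 in KO#2 (standard error 0.22, adjusted p = 0.0301) and −1.52 in KO#10 (standard error 0.22, adjusted p = 0.0800) against the same WT libraries. Only KO#2 passed the threshold, where the background was 8.98% in KO#2 and 0.28% in KO#10, and KO#2 against KO#10 gave −0.06 (standard error 0.22, adjusted p = 0.957). Of the genes tested between the clones none was called by limma, and 479 had an unadjusted p under 0.05. On day 12, replicate 2 was above replicate 1 in all 3 lines for *ATF3*, as in 23.5% of genes, with a difference of −0.85 for replicate 1 against replicate 2 (adjusted p = 0.0617).

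Without KO#10 replicate 1 of day 24, the *ATF3* difference on that day was −1.62 (adjusted p = 0.00456) and the change between the days −2.64 (adjusted p = 0.00630). The day 24 call was lost without WT replicate 1 (adjusted p = 0.0546), without WT replicate 2 (adjusted p = 0.231) and without the second replicate of either clone (0.0665 for KO#2 and 0.0642 for KO#10), while the log2 fold change stayed between −1.73 and −1.38. The call of the change between the days was lost without WT replicate 1 (adjusted p = 0.137), KO#10 replicate 1 (0.0513) or KO#2 replicate 2 (0.0549) of day 12, and without WT (0.170), KO#2 (0.0570) or KO#10 (0.0506) replicate 2 of day 24, with values from −2.61 to −2.13. Marker sums of most cell types differed in the same contrast. On day 24 the summed score of 5 epithelium markers was 591 to 776 in WT and 39 to 240 in KO, with none of them at 0, that of 6 pluripotency markers 388 to 782 against 24 to 43, with *TDGF1* at 0 in 3 KO libraries and *NANOG* in 1, and that of 3 endoderm markers 6176 to 6205 against 33 to 1074. The endoderm sums of WT hold *AFP* at 5585, the highest score of every library. The 5 mesenchyme markers summed to 1870 to 2141 in WT and 124 to 2286 in KO. The 2 endothelium and blood markers in the files summed to 50 to 55 in WT and 1 to 9 in KO, with *HBE1* at 0 in 3 KO libraries, whereas the neuron markers given with *JUN* were higher in KO. The *ATF3* score of 12 in KO#10 replicate 1, the library with 2286, was close to the 9 to 11 of the other KO libraries. The part of these cells in the *ATF3* values was not tested.

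**Figure D4:**
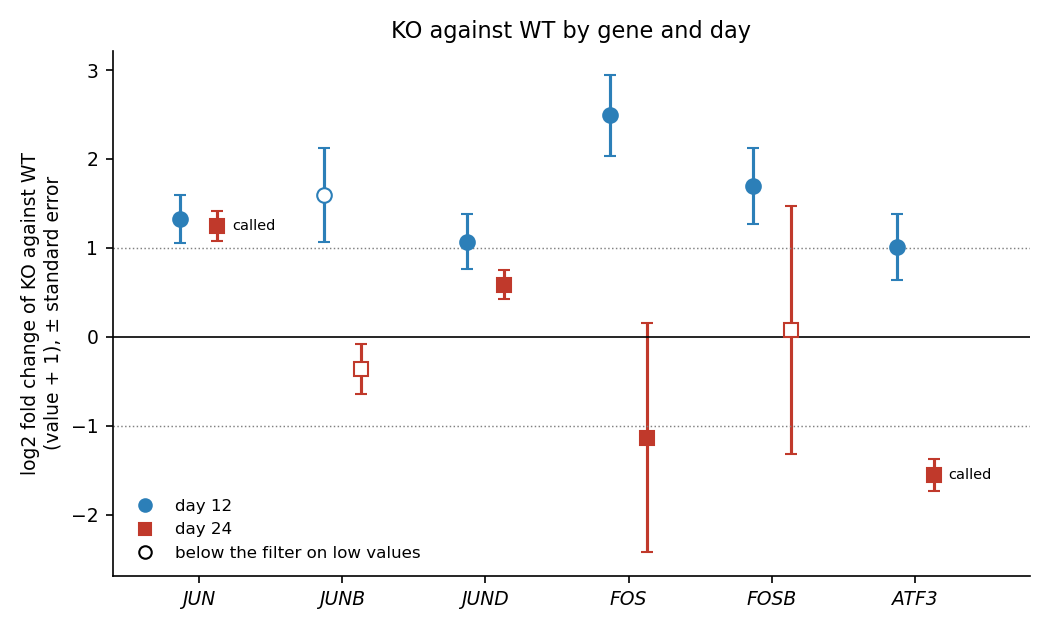
Log2 fold change of KO against WT (y axis, log2 of value plus 1, error bars are standard errors) for the 6 genes on day 12 (circles) and day 24 (squares), with dotted lines at the 2-fold threshold. Open symbols are below the filter on low values. The effect of *JUN* is above 1 on both days, and that of *ATF3* goes from 1.01 to −1.55.

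Partners of the members were described by the same fits. Of 22 further bZIP genes in the list, 13 were in the files. On day 24, 10 passed the filter, of which 1 was higher in KO, none was lower and 3 had an unadjusted p under 0.05. Over all 9289 genes 8.01% were called and 3509 had an unadjusted p under 0.05, against which the counts of all lists on day 24 should be read. The median log2 fold change was 0.01, as for all genes tested (0.01). On day 12, 12 were tested by limma and none was called, with 3 at an unadjusted p under 0.05 and a median of −0.02. The called gene was *ATF6B*, a membrane-bound factor of the unfolded protein response. Its day 24 score was 18 and 13 for WT, 36 and 29 for KO#2, and 31 and 34 for KO#10 (log2 fold change 1.03, standard error 0.17, adjusted p = 0.0206). Without KO#10 replicate 1 it was 1.05 (adjusted p = 0.0121), and the call was lost without any other 1 library of the day (0.81 to 1.25).

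*FOSL2*, which encodes the FOS-related protein FRA2, was the partner called for the change of the KO effect between the days. Of the 13 partners tested, 2 more had an unadjusted p under 0.05, *MAF* (1.05, adjusted p = 0.139) and *ATF6B* (0.66, adjusted p = 0.143). Over all 9952 genes tested for this change by limma, 2136 had an unadjusted p under 0.05. On day 12 the *FOSL2* score was 3 and 3 for WT, 13 and 12 for KO#2, and 9 and 9 for KO#10. On day 24 it was 7 and 7 for WT, 2 and 2 for KO#2, and 4 and 2 for KO#10. KO lay above WT on day 12, as in 8.23% of genes tested, and below it on day 24, as in 21.8%. The change of the KO effect was −2.77 (standard error 0.41, adjusted p = 0.00922, with 1.31% of genes called), and −2.95 (adjusted p = 0.000648) without KO#10 replicate 1 of day 24. Its call was lost without WT replicate 1 of day 12 (adjusted p = 0.0711) or WT replicate 2 of day 24 (adjusted p = 0.0955). In WT *FOSL2* rose with time by a log2 of 1.00 (adjusted p = 0.0393), which is at the 2-fold threshold and was lost without any 1 WT library (adjusted p from 0.104 to 0.154), and in KO it fell by 1.77 on the log2 scale (adjusted p = 0.000221). At scores this low a few units make a large fold change, and on day 24 alone *FOSL2* was below the filter. It reached the score of 10 needed for testing only in KO#2 on day 12 (13 and 12), the group where it was highest. Without either of these libraries it was not tested, so its call depends on that group passing the filter.

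The other partners were not called for the KO effect on the days they were tested. *ATF2*, which pairs with c-JUN, had day 24 scores of 75 and 57 in WT against 82 to 114 in KO (0.55, adjusted p = 0.0952). *ATF4*, the main factor of the integrated stress response, lay at 104 and 108 in WT against 90 to 136 in KO (−0.01, adjusted p = 0.981). *ATF5* lay at 10 and 13 in WT against 4 to 8 in KO (−0.81, adjusted p = 0.0963). The effects of *ATF1*, *ATF6*, *ATF7*, *NFE2L1*, *NFE2L2* and *CREB1* on day 24 were −0.53, 0.15, −0.08, −0.14, 0.02 and 0.17, with adjusted p from 0.150 for *ATF1* to 0.905 for *NFE2L2*. *MAF* and *MAFG* were tested on day 12 alone, at −0.78 (adjusted p = 0.308) and −0.01 (adjusted p = 0.994).

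**Figure D5:**
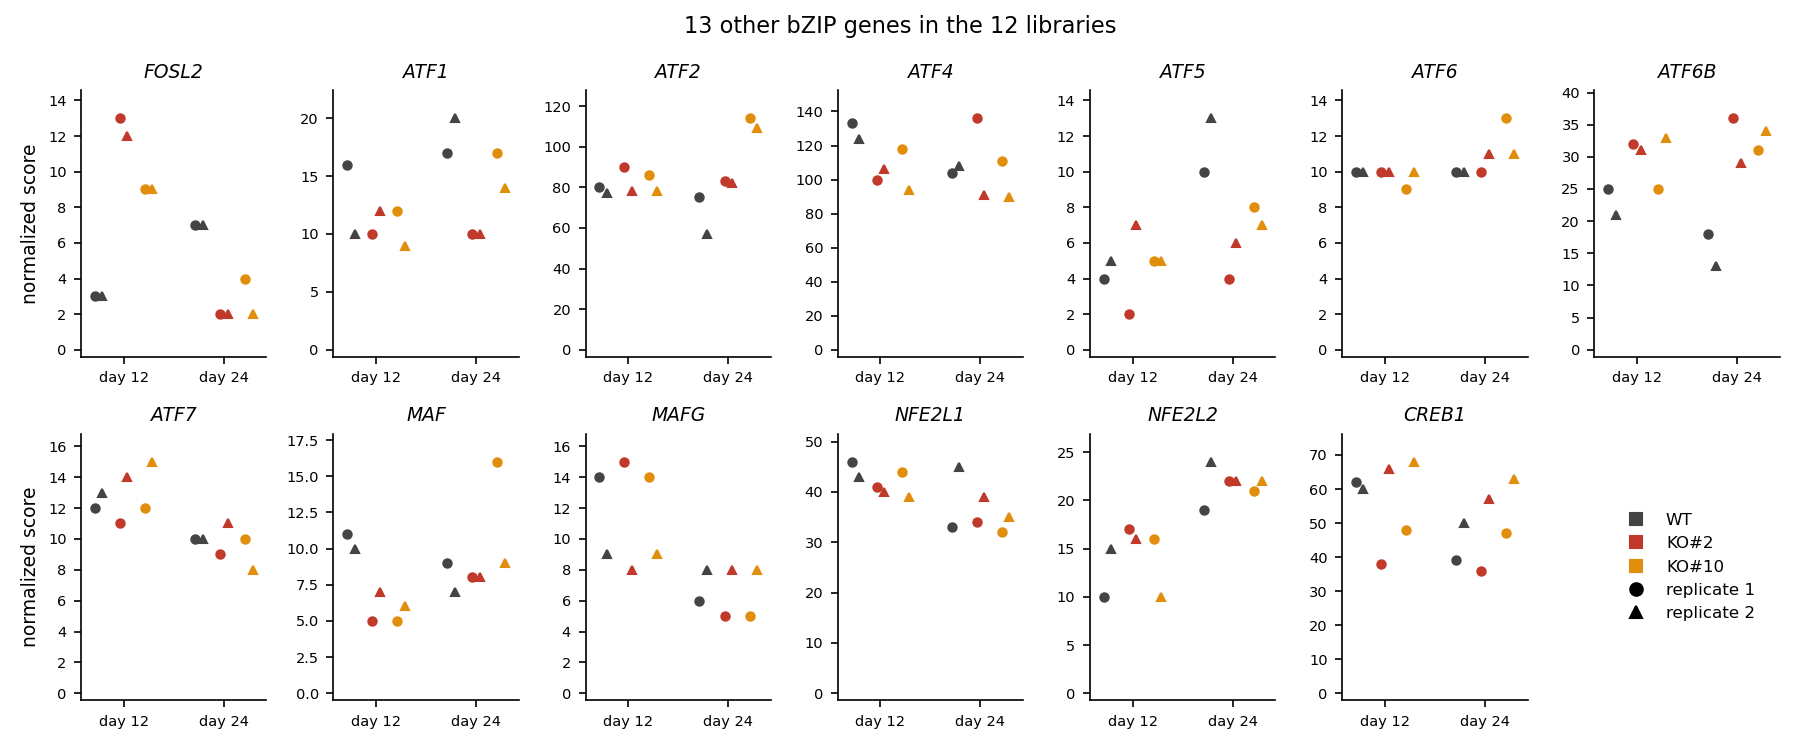
Normalized score (y axis, linear, 1 panel per gene) of the 13 further bZIP genes on day 12 and day 24, WT in grey, KO#2 in red, KO#10 in orange, circles for replicate 1 and triangles for replicate 2. *FOSL2* is higher in KO on day 12 (9 to 13 against 3) and lower on day 24 (2 to 4 against 7).

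Neither the kinases and factors known to act upstream of AP-1 nor its turnover genes held a call between the genotypes. Of 16 upstream genes tested on day 24 limma called none, with 3 at an unadjusted p under 0.05, and on day 12 none of 16, with 1. The smallest p on day 24 belonged to *ELK1*, a partner of serum response factor, at −0.46 (adjusted p = 0.0807). Of 10 genes of turnover and inhibition none was called on day 24, with 1 at an unadjusted p under 0.05, and none on day 12, with 2. The smallest p on day 24 was that of *GSK3B*, a kinase that marks c-JUN for degradation, at 0.59 (adjusted p = 0.0509).

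Of the textbook targets of AP-1, 11 were tested on day 24, of which 2 were lower in KO and none was higher, with a median of −1.17 against 0.01 for all genes and a background of 8.01%. Without KO#10 replicate 1, 7 were lower and none was higher, where 1346 of 9180 genes were called. *ANXA1*, a calcium-dependent phospholipid-binding protein, had scores of 130 and 47 for WT, 7 and 6 for KO#2, and 15 and 6 for KO#10 (log2 fold change −3.16, standard error 0.48, adjusted p = 0.0196). *FN1*, which encodes the matrix protein fibronectin, was at 198 and 747 for WT, 43 and 34 for KO#2, and 121 and 21 for KO#10 (−3.10, standard error 0.74, adjusted p = 0.0389). Both were called when KO#10 replicate 1 was left out, at −3.44 for *ANXA1* (adjusted p = 0.00549) and −3.58 for *FN1* (adjusted p = 0.0109). The *ANXA1* call was lost without either WT library or the second replicate of either clone (−3.88 to −2.43), and the *FN1* call without any 1 library other than KO#10 replicate 1 (−4.05 to −2.14). *VIM*, the intermediate filament gene on the same list, went the other way at 0.96 (standard error 0.15, adjusted p = 0.0196), just short of 2-fold, with 316 and 354 for WT, 666 and 666 for KO#2, and 748 and 550 for KO#10. Both genes are also known from mesenchymal and epithelial cells, whose marker sums are given above, and the part of these cells was not tested. On day 12 limma called none of 8, with 3 at an unadjusted p under 0.05 and a median of 0.43. For *ANXA1* the change of the KO effect between the days was −4.28 (standard error 0.76, adjusted p = 0.0257). That call was lost when any 1 of 7 of the 12 libraries was left out, with adjusted p up to 0.137.

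The integrated stress response, in which ATF4 induces *ATF3* and *DDIT3*, was compared for the sake of *ATF3*. Of its 9 genes tested on day 24, all had a negative log2 fold change, 1 was called, 5 had an unadjusted p under 0.05, and the median was −0.83. The background was 8.01% called. Without KO#10 replicate 1 the number called was 3, where 1346 of 9180 genes were called. *DDIT3*, which encodes the stress factor CHOP, was at 30 and 64 for WT, 12 and 9 for KO#2, and 15 and 11 for KO#10 on day 24 (log2 fold change −1.84, standard error 0.31, adjusted p = 0.0218). It was −1.95 (adjusted p = 0.0111) without KO#10 replicate 1, and the call was lost without any other 1 library of the day (−2.37 to −1.30). Its day 12 scores were 12 and 8 in WT against 10 to 15 in KO (0.33, adjusted p = 0.688). The change between the days was called for *DDIT3*, at −2.16 (standard error 0.41, adjusted p = 0.0346), and lost when any 1 of 8 of the 12 libraries was left out, with adjusted p up to 0.189. In WT it rose with time by a log2 of 2.05 (adjusted p = 0.00164), close to the 2.01 of *ATF3*. On day 12 the median of the 7 tested genes was 0.18, without a call and with 1 at an unadjusted p under 0.05.

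The other immediate early genes held 1 call between the genotypes. On day 12, 8 of 9 tested genes had a positive KO effect with a median of 0.86, limma called none and 4 had an unadjusted p under 0.05. Over all 8885 genes tested on that day the median was −0.002, and 980 had an unadjusted p under 0.05. *EGR1*, *NR4A1* and *DUSP1* reached the score of 10 needed for testing on day 12 only in KO libraries, where they were higher. The number of positive effects and their median were thus partly set by the filter. On day 24, 6 of 8 were negative with a median of −0.36, and 1 was called, a share near the background of 8.01%. This was *KLF10*, a target of TGF-beta signalling, at 15 and 16 for WT, 5 and 7 for KO#2, and 7 and 7 for KO#10 (log2 fold change −1.15, standard error 0.21, adjusted p = 0.0235). It was −1.18 without KO#10 replicate 1 (adjusted p = 0.0108), and the call was lost without the second replicate of either clone. Only the WT libraries reached the score of 10 needed for testing on day 24. Without either of them *KLF10* was not tested, so its call depends on the group where it was higher passing the filter. *DUSP1* and *CCN2* were positive on both days and *KLF6* negative on both, none of them called. The change between the days was negative for all 9 genes, with a median of −0.92 and no call by limma. Of these, 5 had an unadjusted p under 0.05, as did 2136 of the 9952 genes tested. None of the 9 heat shock genes was called on day 24 (3 at an unadjusted p under 0.05, median −0.24) or day 12 (2, median 0.04). The smallest p on day 24 was that of the mitochondrial chaperone *HSPD1* at −0.86 (adjusted p = 0.0206), short of the 2-fold threshold.

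The genes whose scores followed each member most closely were found by Pearson's r of log2 values over all 12 libraries among 9949 genes. The libraries share lines, days and 1 normalization, so these values describe likeness only. *JUN* was followed by *KIAA0895* (r = 0.963), *CDKN2D* (0.962) and *TOM1L2* (0.948), and *JUND* by *ANTKMT* (0.950), *ZNF703* (0.938) and *TBC1D5* (0.933). Those that followed *FOS* included *NECAB2* (0.905) and *SPHK1* (0.837), and *FOSB* was followed by *LAMP5* (0.915), *PPP1R12C* (0.906) and *CCNL1* (0.893). For *ATF3* they were *GDF15* (0.905), *CDC42EP1* (0.900) and *HLA-E* (0.889). *GDF15* encodes a secreted stress cytokine.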

How the data were processed

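Total RNA of COs was depleted of ribosomal RNA and sequenced with a strand-specific protocol. The authors deposited 1 whole-number normalized score per gene and library. The submitters' processing notes list bcl2fastq, Bowtie2 and RSEM, without versions, and the build mm10, although the gene identifiers and intervals are human. The annotation and the normalization are not given in the sources used here.

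Groups came from the labels. Scores were fitted as log2 (value + 1) with limma 3.58.1 (R 4.3.3, variance trend), on genes that reached a score of 10 in 2 or more fitted libraries, with Benjamini-Hochberg adjustment over all genes tested. A call needed an adjusted p below 0.05 together with a log2 change of 1 or more in either direction. The genotypes, the clones and the replicate numbers were fitted within each day, and the days and the interaction in 1 fit of all 12 libraries. Members below the filter come from a fit without it. The fits were tested on simulated data. Fold changes on this scale understate those of low genes. Day 12 libraries of the same replicate number in the labels deviated together (r = 0.459, 0.428 and 0.598 between the lines). They were taken as paired only in the fits with a replicate block. The KO effects and changes between the days were otherwise fitted without it.

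All members were described. Of the lists, every other bZIP gene in the files was named, and of the rest the genes called in KO against WT on either day, at most 4 per list, or else the gene with the smallest p on day 24. *EGR1*, *VIM*, *DUSP1*, *CCN2*, *KLF6*, *NR4A1*, the genes called only for other contrasts and the marker genes at 0 were named after their values were seen. For likeness to a member the 3 genes with the highest r were named, less 1 for *FOS* that is not reported here. The members, lists and rules were chosen with earlier results of these data known. Alternatives were other filters and pseudocounts (0.1 and 5), no variance trend, a replicate block, separate clones, all 12 libraries in 1 fit and each library left out. A centring of the libraries, the permutation test and the alternatives for genes of the lists were added later. Tables and figures used Python 3.11.15, numpy 2.4.6, pandas 2.3.3 and matplotlib 3.10.9.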

Additional observations from a re-analysis of the deposited data

Results flagged for a closer look

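*ATF3* was flagged because its KO effect differed between the days in the interaction test, with a change of −2.56 on the log2 scale (adjusted p = 0.0257 by limma). *FOS* and *FOSB* were each flagged for 1 library far from the others of its group. Among the 4 KO libraries of day 24, KO#2 replicate 1 had a *FOS* score of 47 against 8, 2 and 1, and a *FOSB* score of 21 against 1, 0 and 0. For normally distributed values chance flags about 1 in 20 groups in this way. That rate may not hold for whole-number scores near 0. Both flags came from the same library.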

How the results depend on the processing

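The calls of *JUN* and *ATF3* on day 24 and of the change of *ATF3* between the days held under every filter, pseudocount, trend, block and centring tried, and were lost only by leaving out libraries. Leaving out 1 library at a time gave log2 fold changes of 1.15 to 1.34 for *JUN* and −1.73 to −1.38 for *ATF3* on day 24, −3.0 to −2.13 for the change of *ATF3*, 0.73 to 1.58 for *JUN* over time in WT, 0.99 to 1.16 for *JUN* over time in KO, and 1.21 to 2.79 for *JUNB* over time in WT. Values without a call changed sign: *FOSB* on day 24 (−1.22 to 1.36) and over time in WT (−1.79 to 0.79), the change between the days of *JUN* (−0.50 to 0.34) and *JUND* (−1.12 to 0.14), *JUNB* over time in KO (−0.23 to 0.18), and *ATF3* by replicate on day 24 (−0.044 to 0.014). The numbers of genes called on day 24 were 2 without WT replicate 2, 23 without WT replicate 1, 15 and 23 without the second replicates of KO#2 and KO#10, 263 without KO#2 replicate 1 and 1346 without KO#10 replicate 1. They ranged from 1 to 4 on day 12, from 11 to 916 for the change between the days, and from 809 to 1571 over time in WT, and were 0 for the replicates of day 12. The causes were not tested.

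A pseudocount of 5 gave 0.81 for *JUN* and 0.89 for *JUNB* over time in WT and 0.92 for *JUN* in KO, short of 2-fold, with 981, 691 and 34 genes called over time in WT, in KO and by replicate on day 12, and it turned the change of *JUN* to 0.11. A pseudocount of 0.1 turned *FOSB* on day 24 to −0.041. No gene was called by replicate on day 12 without the filter (0). On day 12 the number called was 16 without the variance trend and 1 with separate clones, and on day 24 it was 1118 with all 12 libraries in 1 fit.

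The replicate block moved the number called from 8 to 71 on day 12, from 130 to 368 for the change between the days and from 744 to 661 on day 24, where the numbers were not taken to pair the libraries (r = 0.212, −0.106 and 0.346). Under the block *FOS* passed the threshold for the change between the days (−3.63, adjusted p = 0.0491) and over time in WT (2.06, adjusted p = 0.0464), as did *JUNB* for the change (−1.96, adjusted p = 0.0474). So did *FOS* (−1.56, adjusted p = 0.0303) and *FOSB* (−2.12, adjusted p = 0.0207) over time in KO, and *FN1* lost its call on day 24 (adjusted p = 0.0551). It changed no other call of a member or of the list genes called. A pseudocount of 5 left *ATF6B* (0.88), *KLF10* (−0.84) and *FOSL2* over time in WT (0.58) short of 2-fold. With 2 libraries per line and day and no known depth, differences of a few units at low scores could not be resolved.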
